A study of Mus musculus with 45 samples.

Results

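The genes described here encode the ligands and receptors of 4 axon guidance systems: ephrins and their Eph receptors, semaphorins with plexins and neuropilins, netrins with the Unc5 receptors, and slits with the Robo receptors. They were taken by symbol from the authors' model table, and 64 of its 9626 probe sets met the rule, out of 28944 probe sets with a value in the series. The 64 probe sets stand for 62 genes, 32 ligands and 30 receptors, since Plxnb1 and Unc5d have several. There were 4 ephrin-A and 3 ephrin-B ligands, 8 EphA and 5 EphB receptors, 18 semaphorins, 7 plexins, 2 neuropilins, 5 netrins and netrin-G ligands, 4 Unc5 receptors, 2 slits and 4 Robo receptors. Every probe set of that table had passed the authors' filter on variance, so a guidance gene that hardly varied over the face is not included, and a count of members that differ is a description of a set in which differences had to occur.

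RNA was measured on 45 arrays (Affymetrix Mouse Gene 1.0 ST), with 3 biological replicates in each of 15 groups. The tissue was the ectoderm and the mesenchyme of the frontonasal, maxillary and mandibular prominences, the buds that form the nose and the jaws. The mice were C57BL6/J, an inbred wild-type strain, so no group carried an induced allele or a treatment. Each replicate was a pool of prominences from several embryos, and the layers were separated by peeling after a Dispase II digestion, so a group is a peeled tissue and not a sorted cell type. Both layers were measured at E11.5 and at E12.5 in the frontonasal, maxillary and mandibular prominences. At E10.5 the groups were mandibular ectoderm, frontonasal mesenchyme and mandibular mesenchyme. In bulk tissue of this kind, fewer cells of a type and less RNA per cell cannot be told apart.

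Guidance ligands were first known for steering growing axons, and the same proteins direct migrating neural crest cells and growing vessels and set boundaries between tissues. Ephrins are held at the cell surface and signal on contact to Eph receptor kinases, with A ligands binding mostly EphA and B ligands mostly EphB receptors. Class 3 semaphorins are secreted and act through a neuropilin paired with a plexin, while other semaphorin classes mostly bind plexins directly. Netrin 1 repels cells that carry Unc5 receptors, and slits repel cells that carry Robo receptors. In the face these systems are known for the path of neural crest streams, the patterning of the trigeminal nerve and formation of the palate.

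Values are log2 signals of the deposited table, and a difference is a log2 value ± its standard error from a fit to all 45 arrays. A member is counted as higher or lower where its adjusted p was under 0.05. A probe set was counted as detected on an array where the deposited detection p-value was under 0.05. By that measure 56 of the 64 probe sets were detected on all 45 arrays and 62 on at least 3. Robo3 (probe set 10592303) and the second Plxnb1 probe set (10596988) were detected on 0 arrays. No direction or fold is given for either alone, but both enter the counts over 64 by the sign of their difference.

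The peeled layers matched their labels by markers. All 15 epithelial markers were higher in ectoderm, with a mean log2 signal over the list of 9.67 to 10.29 in ectoderm arrays and 5.55 to 8.27 in mesenchyme arrays. All 12 cranial mesenchyme markers were lower in ectoderm, at 6.14 to 8.66 in ectoderm arrays and 9.21 to 10.66 in mesenchyme arrays. Frontonasal mesenchyme stood at 7.46 to 8.27 for the epithelial list, above the 5.55 to 6.86 of maxillary and mandibular mesenchyme. The arrays of replicate 3 of frontonasal ectoderm at E12.5, replicate 2 of frontonasal ectoderm at E11.5 and replicate 1 of maxillary mesenchyme at E12.5 stood apart from their groups, with mean correlations to their own replicates of 0.953, 0.975 and 0.982. Counts without these 3 arrays are given beside the counts over all arrays.

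Ectoderm was compared with mesenchyme of the same age and prominence over 7 combinations, with 21 arrays a layer. The secreted class 3 semaphorins other than Sema3g were higher in the ectoderm, and their receptors Nrp1, Nrp2 and Plxnd1 were higher in the mesenchyme beneath it. The receptor Epha1 and the pair of Efna1 and Epha2 were ectodermal, while Epha3, the slits and Robo1 and Robo4 were mesenchymal. Of the 64 probe sets 59 differed, 29 of them higher in ectoderm and 30 lower there. The 29 include the 2 probe sets detected on 0 arrays. With a filter on detection in place of that on variance, 62 members were left, 27 higher and 30 lower. Without the 3 arrays above 61 of the 64 differed, 28 higher and 33 lower. Over all 14472 probe sets tested, 69.6% differed, 35.9% higher in ectoderm and 33.7% lower. The median absolute difference was 0.66 for the members and 0.23 over all tested probe sets. At least 2-fold, 8 members were higher in ectoderm and 6 lower, against 4.27% and 4.57% of the tested probe sets.

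**Figure D1:**
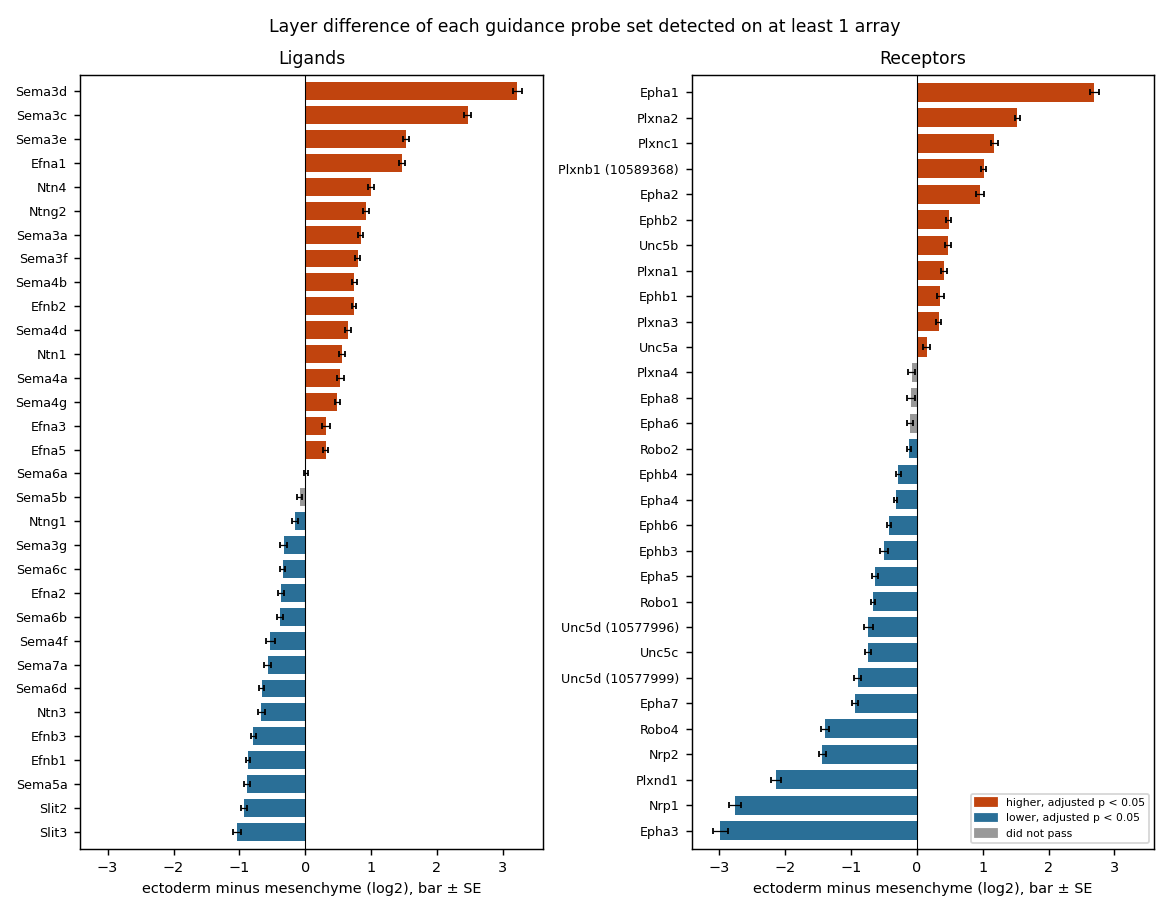
Layer difference (ectoderm minus mesenchyme, log2, horizontal axis) of each ligand (left) and receptor (right) probe set detected on at least 1 array, with bars of ± 1 standard error. Sema3d, Sema3c and Sema3e stand at the top of the ligand panel and Epha3, Nrp1 and Plxnd1 at the bottom of the receptor panel.

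Sema3d, a secreted repellent that acts through neuropilin 1, had the largest layer difference of the ligands. Its lowest, median and highest log2 signals were 9.36, 10.04 and 10.46 in ectoderm and 4.78, 6.74 and 8.35 in mesenchyme (probe set 10519693). Every ectoderm array lay above every mesenchyme array, a difference of 3.22 ± 0.066, or 9.32-fold (adjusted p = 1.95e-31). The size varied between tissues, with log2 differences of 4.77 in the mandibular prominence at E10.5 and 1.68 in the maxillary prominence at E12.5. Sema3c, a ligand of Nrp1, Nrp2 and Plxnd1 known for the cardiac outflow tract, had 8.37, 9.13 and 9.84 in ectoderm and 6.05, 6.54 and 7.36 in mesenchyme (probe set 10519886). Its layers did not overlap either, and it was 5.53-fold higher in ectoderm (2.47 ± 0.053, adjusted p = 6.06e-31). Sema3e, which binds Plxnd1 without a neuropilin, had 6.47, 6.78 and 7.85 in ectoderm and 4.53, 5.42 and 6.12 in mesenchyme, again without overlap (1.53 ± 0.051, 2.89-fold). Smaller differences in the same direction were found for Sema3a (0.84 ± 0.034) and Sema3f (0.79 ± 0.04), and Sema3g was the class 3 ligand lower in ectoderm (-0.33 ± 0.056).

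Sema3d, Sema3a, Sema3e and Sema3c lie in that order on mouse chromosome 5. In the RefSeq annotation 0 protein-coding genes separate Sema3d from Sema3a, 3 separate Sema3a from Sema3e and 15 separate Sema3e from Sema3c. These 4 neighbours were all higher in ectoderm. Elsewhere, Efna1 and Efna3, direct neighbours on chromosome 3, were both higher in ectoderm (1.47 and 0.31), and Robo1 and Robo2 on chromosome 16 both lower (-0.67 and -0.12). Epha1 and Ephb6, with 18 protein-coding genes between them on chromosome 6, had opposite layers.

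Of the receptors of these ligands, Nrp1, Nrp2 and Plxnd1 had the opposite layer. Nrp1, a co-receptor of class 3 semaphorins and of VEGF-A, had a lowest, median and highest signal of 4.86, 6.16 and 7.18 in ectoderm and 8.10, 8.90 and 9.65 in mesenchyme (probe set 10576639). The layers did not overlap, and Nrp1 was 6.78-fold lower in ectoderm (-2.76 ± 0.086, adjusted p = 4.61e-26). Plxnd1, a plexin known for guiding vessels, had 5.80, 6.61 and 7.39 in ectoderm and 8.23, 8.72 and 9.37 in mesenchyme, without overlap (-2.14 ± 0.076, adjusted p = 2.61e-24). Nrp2 had 6.88, 7.68 and 8.72 in ectoderm and 8.34, 9.18 and 9.84 in mesenchyme (-1.44 ± 0.05), and its layers overlapped. Both neuropilins and Plxnd1 are also endothelial genes. All 14 endothelial markers were lower in ectoderm, at a mean of 5.25 to 6.42 in ectoderm arrays and 7.36 to 7.98 in mesenchyme arrays. The marker with the fewest detections was Sox17, on 12 of the 21 ectoderm arrays and 21 of the 21 mesenchyme arrays. The part of vessels in the Nrp1, Nrp2 and Plxnd1 differences was not tested.

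Of the class A plexins, the signalling partners of the neuropilins, 3 were higher in ectoderm. Plxna2 had 9.33, 9.71 and 10.30 in ectoderm and 7.83, 8.31 and 8.75 in mesenchyme, without overlap (1.53 ± 0.039, 2.88-fold, adjusted p = 1.09e-28). Plxna1 (0.41 ± 0.048) and Plxna3 (0.33 ± 0.041) were higher in ectoderm by less, and Plxna4 did not pass (-0.078 ± 0.05, adjusted p = 0.16). Plxnc1, the receptor of Sema7a, was higher in ectoderm (1.17 ± 0.054), and its ligand Sema7a was lower there (-0.57 ± 0.055). Plxnb1, the receptor of Sema4d, was higher in ectoderm in the probe set detected on arrays of both layers (10589368, 1.01 ± 0.036), as was Sema4d (0.65 ± 0.048). Of the membrane semaphorins of class 4, Sema4a, Sema4b, Sema4d and Sema4g were higher in ectoderm and Sema4f was lower (-0.53 ± 0.067). In classes 5 and 6, Sema5a (-0.88 ± 0.045), Sema6d (-0.66 ± 0.037), Sema6b (-0.38 ± 0.047) and Sema6c (-0.34 ± 0.043) were lower in ectoderm, while Sema6a (0.0076 ± 0.033) and Sema5b (-0.085 ± 0.041) did not pass.

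**Figure D2:**
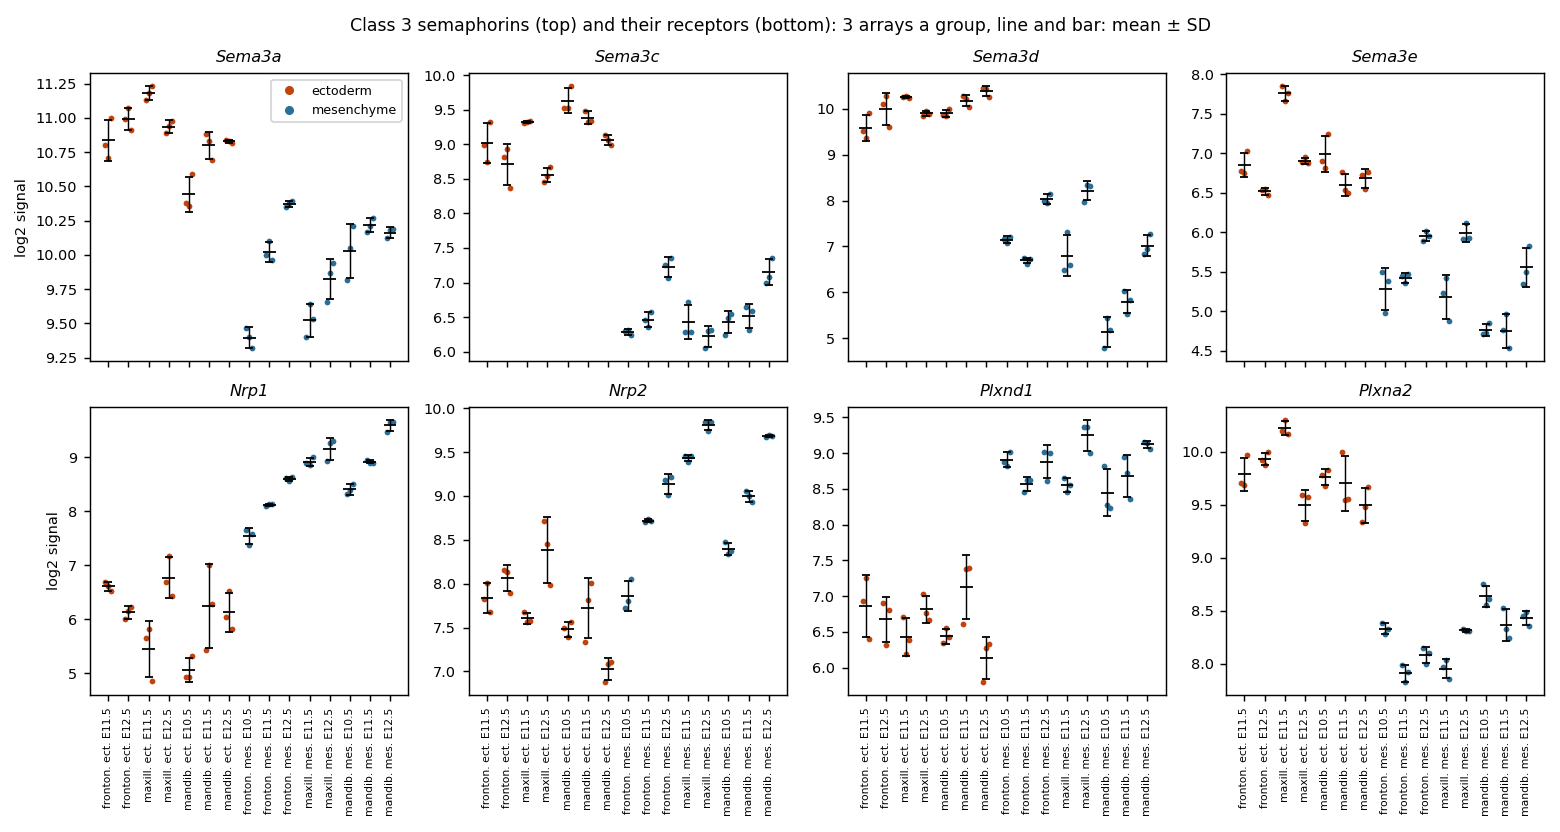
Log2 signal (vertical axis) of 4 class 3 semaphorins (top) and 4 receptors (bottom) in the 15 groups, 1 point per array, with group mean and SD (n = 3), ectoderm groups to the left of mesenchyme groups. The ligands and Plxna2 are high in the ectoderm groups, and Nrp1 and Plxnd1 are low in them on every array.

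The promoters of Sema3d and Sema3c, the ligands most raised in ectoderm, are shown beside those of Nrp1 and Plxnd1, the semaphorin receptors lowest there relative to mesenchyme, from 250 bases before to 50 bases after the annotated start. They are RefSeq sequences of build GRCm38.p6, 5′ to 3′ on the strand of the gene, at chr5:12382916-12383215 (plus strand), chr5:17574566-17574865 (plus), chr8:128358823-128359122 (plus) and chr6:115994956-115995255 (minus).
Sema3d: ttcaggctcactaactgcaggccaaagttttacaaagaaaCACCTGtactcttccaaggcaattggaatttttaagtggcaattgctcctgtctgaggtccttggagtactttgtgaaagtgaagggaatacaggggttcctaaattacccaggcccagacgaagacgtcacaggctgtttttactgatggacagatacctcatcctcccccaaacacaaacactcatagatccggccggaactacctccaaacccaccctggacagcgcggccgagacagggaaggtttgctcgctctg
Sema3c: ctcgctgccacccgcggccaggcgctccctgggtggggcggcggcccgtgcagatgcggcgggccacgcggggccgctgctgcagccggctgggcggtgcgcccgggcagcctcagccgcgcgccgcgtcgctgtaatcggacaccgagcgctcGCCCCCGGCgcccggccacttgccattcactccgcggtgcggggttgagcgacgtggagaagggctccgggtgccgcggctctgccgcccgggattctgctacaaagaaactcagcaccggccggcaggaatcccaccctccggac
Nrp1: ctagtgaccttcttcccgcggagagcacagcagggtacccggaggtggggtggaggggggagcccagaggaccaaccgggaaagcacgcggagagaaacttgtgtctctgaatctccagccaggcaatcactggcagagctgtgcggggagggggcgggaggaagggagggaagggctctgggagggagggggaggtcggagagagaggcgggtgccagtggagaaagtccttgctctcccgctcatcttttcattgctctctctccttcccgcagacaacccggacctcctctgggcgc
Plxnd1: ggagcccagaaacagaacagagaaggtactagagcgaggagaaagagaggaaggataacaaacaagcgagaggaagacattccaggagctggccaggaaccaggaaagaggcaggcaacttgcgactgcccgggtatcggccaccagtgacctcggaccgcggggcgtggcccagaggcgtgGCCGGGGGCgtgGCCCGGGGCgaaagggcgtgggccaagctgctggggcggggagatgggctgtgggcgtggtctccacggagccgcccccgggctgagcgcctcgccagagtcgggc
Capitals mark matches, on either strand, to CACCTG, the E-box bound by ZEB and SNAI repressors, and to GCCNNNGGC, the AP-2 motif. No matches overlap in these 4 windows. Sema3d has 1 CACCTG match, Sema3c 1 AP-2 match and Plxnd1 2 AP-2 matches, and the Nrp1 window holds neither set of letters nor the GRHL motif AACCGGTT. Promoters were matched for 55 of the 62 genes, 69 windows in all. CACCTG occurred in 4 of the 32 windows of genes higher in ectoderm, 3 of the 33 of genes lower in ectoderm (9.09%) and 20.2% of all 32851 promoters. The AP-2 motif occurred in 25%, 18.2% and 16.6% of the same sets, and AACCGGTT in 0, 0 and 0.146%. The median GC content was 64% in the members' windows and 52.7% over all promoters. A match is only a run of letters, and none of these shares was tested.

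Among the Eph receptors the layers were split by gene and not by class. Epha1, a receptor kinase of epithelia, had a lowest, median and highest signal of 7.96, 8.69 and 8.90 in ectoderm and 5.17, 5.82 and 6.80 in mesenchyme (probe set 10544417). It was 6.48-fold higher in ectoderm with no overlap (2.69 ± 0.063, adjusted p = 7.35e-30). Epha3, another receptor of ephrin-A ligands, had the opposite layer, with 4.65, 6.16 and 8.36 in ectoderm and 8.32, 9.22 and 10.04 in mesenchyme (probe set 10440258, -2.98 ± 0.12, 7.9-fold lower, adjusted p = 5.63e-23). Its layers overlapped at 1 edge, since a maxillary ectoderm array at E12.5 (replicates at 8.22, 8.36 and 7.56) lay above the lowest mesenchyme array, from the frontonasal prominence at E11.5 (replicates at 8.47, 8.32 and 8.55). In those maxillary ectoderm arrays the cranial mesenchyme list averaged 7.83 to 8.41, and its part in their Epha3 signal was not tested. Epha7, a receptor for ephrin-A ligands, was lower in ectoderm too (-0.94 ± 0.042), with smaller differences in Epha4 (-0.32 ± 0.03) and in Epha5 (-0.64 ± 0.045), which was detected on 14 of the 21 ectoderm arrays. Epha6 (-0.10 ± 0.05) and Epha8 (-0.089 ± 0.061) did not pass.

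Efna1, the ephrin that binds Epha2, had 7.94, 8.20 and 8.56 in ectoderm and 6.44, 6.73 and 7.03 in mesenchyme, a 2.77-fold difference without overlap (1.47 ± 0.048, adjusted p = 1.38e-25). Epha2 itself was higher in ectoderm with no overlap (0.96 ± 0.056), so this ligand and receptor shared a layer. Efna3 (0.31 ± 0.062) and Efna5 (0.31 ± 0.037) were higher in ectoderm and Efna2 lower (-0.37 ± 0.041). Efnb1, the ephrin whose human gene is mutated in craniofrontonasal syndrome, was lower in ectoderm (-0.87 ± 0.035, adjusted p = 8.66e-23), as was Efnb3 (-0.79 ± 0.044). Efnb2, the ligand of Ephb4 on vessels, was higher in ectoderm (0.74 ± 0.032), and Ephb4 was lower (-0.28 ± 0.036). Ephb1 (0.35 ± 0.054) and Ephb2 (0.48 ± 0.038) were higher in ectoderm, and Ephb3 (-0.50 ± 0.056) and Ephb6 (-0.42 ± 0.036) were lower.

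Netrin ligands were split, with Ntn4, Ntng2 and Ntn1 higher in ectoderm and Ntn3 and Ntng1 lower. Ntn4, a laminin-related netrin of basement membranes, had 6.25, 6.77 and 7.30 in ectoderm and 5.54, 5.79 and 6.06 in mesenchyme, without overlap (1.00 ± 0.042, adjusted p = 3.91e-22). The membrane-anchored Ntng2 (0.92 ± 0.043) and the secreted attractant and repellent Ntn1 (0.56 ± 0.042) were higher in ectoderm, while Ntn3 (-0.67 ± 0.05) and Ntng1 (-0.15 ± 0.051) were lower. The repulsive netrin receptors divided in the same way, with Unc5b (0.48 ± 0.048) and Unc5a (0.15 ± 0.051) higher in ectoderm and Unc5c (-0.74 ± 0.041) and Unc5d (-0.74 ± 0.065 and -0.90 ± 0.056 in its probe sets) lower.

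The slits and their receptors were mesenchymal on average. Slit3 (-1.04 ± 0.061, adjusted p = 7.78e-18) and Slit2 (-0.93 ± 0.048, adjusted p = 2.42e-19) were lower in ectoderm, but not in every tissue. Slit2 differed by 0.097 in the frontonasal prominence at E11.5 and by -1.96 there at E12.5. Robo4, the Robo receptor of endothelium, had 4.97, 5.47 and 6.17 in ectoderm, where it was detected on 14 of 21 arrays, and 6.43, 6.94 and 7.33 in mesenchyme, where it was detected on 21 of 21. It was 2.63-fold lower in ectoderm (-1.40 ± 0.062, adjusted p = 2.21e-21), beside the lower endothelial markers given above. Robo1 (-0.67 ± 0.034) and Robo2 (-0.12 ± 0.035), which carry slit signals in neurons, were lower by less. The highest group mean of Robo2 was in frontonasal ectoderm at E12.5 (10.13).

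Ligands and receptors of the same guidance system were set side by side in 61 pairs. A gene of several probe sets was read from its first detected one. Binding was not tested for any pair. In 19 pairs the ligand was higher in ectoderm and the receptor higher in mesenchyme, as for Sema3c with Nrp1, Sema3e with Plxnd1 and Efna5 with Epha3. In 10 pairs the ligand was higher in mesenchyme and the receptor higher in ectoderm, as for Sema7a with Plxnc1. Both partners were higher in ectoderm in 12 pairs, such as Efna1 with Epha2 and Sema4d with Plxnb1. In another 13 both were higher in mesenchyme, among them the 6 pairs of Slit2 and Slit3 with Robo1, Robo2 and Robo4. The other 7 pairs held a partner that did not differ. Among these Robo receptors, Robo2 had a small layer difference (-0.12), and its highest group mean was in frontonasal ectoderm at E12.5 (10.13). Over all members, 16 of 32 ligand probe sets were higher in ectoderm and 14 lower, and 13 of 32 receptor probe sets higher and 16 lower. The 13 include the 2 probe sets detected on 0 arrays. Pairs share ligands and receptors, so they are not independent. Each class follows the layer difference averaged over ages and prominences, and a pair may depart from it in a single tissue. Ntn1 with Unc5c is among the 19, although the layer difference of both genes changed with age, as given below.

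Other genes of the pathways were read from lists of co-receptors, other ligands and effectors. The filter on variance left 20 of 22 co-receptors and other guidance receptors, 12 of 14 other ligands and 29 of 48 effectors. Of the 20 receptors 11 were higher in ectoderm and 8 lower, of the 12 ligands 6 and 6, and of the 29 effectors 17 and 9, against the 35.9% and 33.7% of all tested probe sets given above. Cxcl12, a chemokine that guides migrating cells, was lower in ectoderm (-2.18 ± 0.051), while Nell2, a Robo3 ligand (1.97 ± 0.039), Met, the receptor of hepatocyte growth factor (1.68 ± 0.06), and the kinase Limk2, which acts on cofilin (1.68 ± 0.037), were higher.

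**Figure D3:**
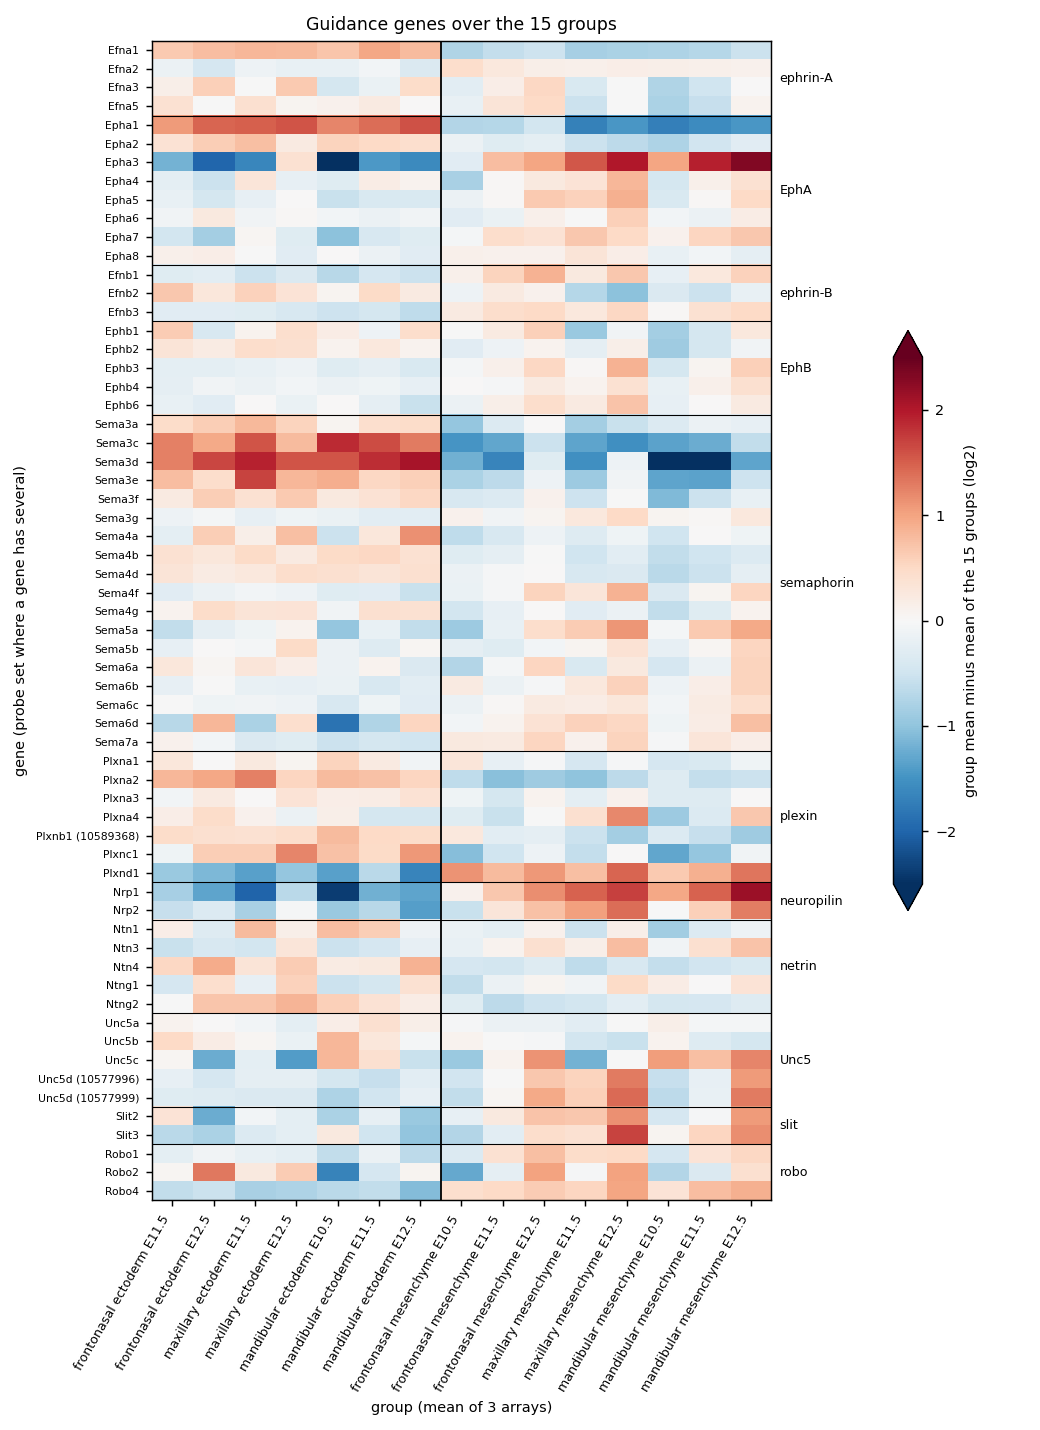
Group mean of each probe set detected on at least 1 array, minus its mean over the 15 groups (log2, colour), in rows by family and columns by group, with ectoderm left of the vertical line. Sema3d, Sema3c and Epha1 are red left of the line, and Nrp1 and Plxnd1 are blue, as is Epha3 except in maxillary ectoderm at E12.5.

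At E11.5 and E12.5, frontonasal mesenchyme was then compared with that of the mandibular prominence, with 6 arrays a side. Of the 7 ephrins Efna3, Efna5, Efnb1 and Efnb2 were higher on the frontonasal side, and both neuropilins were lower. Of the 64 probe sets 27 differed, 15 higher and 12 lower (33 without the 3 arrays above, 17 and 16), while 20.3% of all tested probe sets differed, 11.8% higher and 8.48% lower. Efna5 had a lowest, median and highest signal of 9.34, 9.56 and 9.67 in frontonasal mesenchyme and 8.45, 8.91 and 9.25 in mandibular mesenchyme, without overlap (0.66 ± 0.07, adjusted p = 1.46e-09). Efnb2 had 9.50, 9.64 and 9.75 in frontonasal and 8.83, 9.15 and 9.31 in mandibular mesenchyme, also without overlap (0.52 ± 0.059, adjusted p = 6.41e-09). The receptor of several ephrin-A ligands, Epha3, went the other way, at 8.32, 8.59 and 8.71 in frontonasal and 9.49, 9.81 and 10.04 in mandibular mesenchyme (-1.25 ± 0.22, 2.38-fold lower, no overlap, adjusted p = 2.39e-05). Nrp1 followed it, with 8.10, 8.36 and 8.63 in frontonasal and 8.90, 9.21 and 9.65 in mandibular mesenchyme and no overlap (-0.89 ± 0.16, adjusted p = 3.88e-05). Slit3 (-0.76 ± 0.11), Sema5a (-0.68 ± 0.085), Sema5b (-0.48 ± 0.077) and Plxna4 (-0.45 ± 0.093) were lower as well.

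Some members with higher signals in ectoderm were also higher in frontonasal mesenchyme. Epha1 had 6.44, 6.64 and 6.80 in frontonasal and 5.47, 5.64 and 5.95 in mandibular mesenchyme, without overlap (0.93 ± 0.12, adjusted p = 7.43e-08). Sema3d (0.96 ± 0.12), Sema3e (0.54 ± 0.095), Efna3 (0.58 ± 0.12) and Plxnb1 (0.48 ± 0.067) were higher too. Among other ectodermal members, Sema3c (0.012), Efna1 (0.067), Epha2 (0.11), Plxnc1 (0.21) and Ntn4 (0.037) did not pass, and Plxna2 was lower (-0.40 ± 0.073). In the same comparison 14 of 15 epithelial markers, 9 of 13 neuronal markers and 7 of 7 olfactory placode and forebrain markers were higher, while 2 neuronal markers were lower. The epithelial list averaged 7.46 to 8.27 on frontonasal arrays and 5.73 to 6.56 on mandibular arrays of these ages, and the placode list 7.41 to 7.81 and 4.97 to 5.29. Of the neuronal markers, Nhlh1 and Neurod1 were detected on 6 frontonasal and 0 mandibular arrays. The part of these cells in the Epha1, Sema3d, Sema3e, Efna3 and Plxnb1 differences was not tested. All 9 skeletal muscle markers were lower in frontonasal mesenchyme, at 5.20 to 5.49 on frontonasal and 6.86 to 8.08 on mandibular arrays. Of 14 endothelial markers 0 were higher and 3 lower. Whether muscle or endothelial cells had a part in the lower members was not tested.

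At E10.5 the same mesenchymes can be set side by side with 3 arrays each, as values only. Unc5c had 7.59, 7.26 and 7.39 in frontonasal and 9.32, 9.37 and 9.47 in mandibular mesenchyme. Sema3d had 7.16, 7.07 and 7.21 in frontonasal and 4.78, 5.44 and 5.17 in mandibular mesenchyme. Epha3 had 7.53, 7.19 and 7.44 in frontonasal and 8.40, 8.73 and 8.85 in mandibular mesenchyme. In none of these 3 genes did the groups overlap at E10.5, and Sema3d was higher and Unc5c and Epha3 lower on the frontonasal side.

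Maxillary mesenchyme differed from mandibular mesenchyme in 20 of the 64 probe sets, 13 higher and 7 lower (22 without the 3 arrays, 15 and 7), against 9.98% of all tested probe sets, 4.15% higher and 5.84% lower. The netrin receptor Unc5c had the largest difference. Its lowest, median and highest signals were 7.06, 7.75 and 8.54 in maxillary and 9.01, 9.35 and 9.59 in mandibular mesenchyme (probe set 10496519), with no overlap. Its level was 3.01-fold lower in the maxillary samples (-1.59 ± 0.077, adjusted p = 3.17e-18), with differences of -1.94 at E11.5 and -1.23 at E12.5. Its relative Unc5d was higher there (0.50 ± 0.12 and 0.45 ± 0.10 in its probe sets). Sema3d was 2.15-fold higher in maxillary mesenchyme (1.10 ± 0.12, adjusted p = 1.24e-08), whereas its neighbours Sema3a (-0.52 ± 0.064) and Sema3c (-0.50 ± 0.099) were lower.

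Efnb2 had 8.39, 8.57 and 8.79 in maxillary and 8.83, 9.15 and 9.31 in mandibular mesenchyme, without overlap (-0.52 ± 0.059, adjusted p = 2.35e-08). The semaphorin receptor Plxna4 was higher in maxillary mesenchyme (0.63 ± 0.093), as were Epha5 (0.47 ± 0.084) and the slit receptor Robo2 (0.47 ± 0.066). All 9 skeletal muscle markers were lower in maxillary mesenchyme, at 5.77 to 6.49 on maxillary and 6.86 to 8.08 on mandibular arrays, and 7 of 13 neuronal markers were higher and 1 lower. The neuronal list averaged 6.13 to 7.25 on maxillary and 5.81 to 6.34 on mandibular arrays. Their part in the member differences was not tested.

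Set directly against maxillary mesenchyme, frontonasal mesenchyme differed in 33 probe sets, 16 higher and 17 lower (34 without the 3 arrays, 15 and 19), against 18.8% of all tested, 11.8% higher and 6.99% lower. Unc5c had 8.42, 8.93 and 9.50 in frontonasal and 7.06, 7.75 and 8.54 in maxillary mesenchyme (1.20 ± 0.077, 2.3-fold, adjusted p = 5.32e-15). The ephrin Efnb2 was 2.05-fold higher, at 9.50, 9.64 and 9.75 in frontonasal and 8.39, 8.57 and 8.79 in maxillary mesenchyme (1.04 ± 0.059, adjusted p = 2.73e-16). Frontonasal mesenchyme therefore had the highest Efnb2 of the 3, maxillary the lowest, and neither neighbour in that order overlapped the next. Ephb1, a receptor for ephrin-B ligands, was higher in frontonasal mesenchyme (0.92 ± 0.10), without overlap. Plxna4 was lower, at 6.60, 6.96 and 7.32 in frontonasal and 7.60, 8.01 and 8.56 in maxillary mesenchyme (-1.08 ± 0.093, adjusted p = 9.75e-12). Slit3 (-0.95 ± 0.11), Epha3 (-0.89 ± 0.22), Sema5a (-0.74 ± 0.085), Nrp2 (-0.69 ± 0.094) and Nrp1 (-0.68 ± 0.16) were lower too. This comparison shares its frontonasal and maxillary arrays with the comparisons above. All 15 epithelial and 7 of 7 placode and forebrain markers were higher in frontonasal mesenchyme here and 7 of 9 muscle markers lower, and 8 of 13 neuronal markers were higher and 3 lower. Of 7 markers of glia and migratory crest 1 was higher and 4 were lower, and of 14 endothelial markers 1 was higher and 3 were lower. Their part in the member differences was not tested. Among the members Epha1 was higher as well (0.98 ± 0.12).

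**Figure D4:**
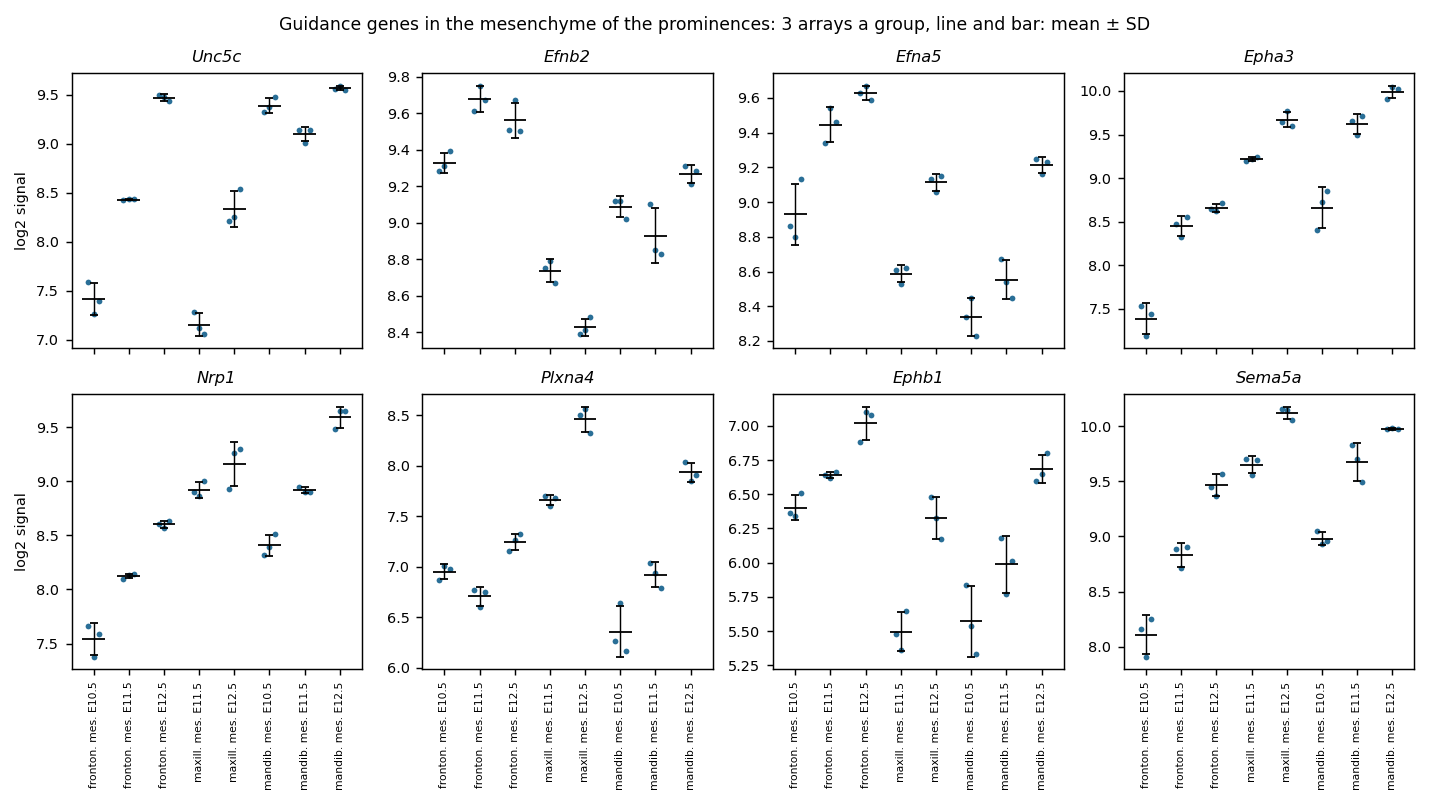
Log2 signal (vertical axis) of 8 members in the 8 mesenchyme groups, 1 point per array, with group mean and SD (n = 3). Unc5c is lowest in maxillary mesenchyme at E11.5 and in frontonasal mesenchyme at E10.5, and Efnb2 is highest in frontonasal mesenchyme at E11.5 and E12.5.

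Between prominences of the ectoderm, 18 members differed in each of the 3 comparisons. Frontonasal ectoderm differed from mandibular ectoderm at E11.5 and E12.5 in 10 probe sets that were higher and 8 that were lower (15 without the 3 arrays, 8 and 7), and 23.1% of all tested probe sets differed, 11.3% higher and 11.8% lower. A fit to the compared groups alone called 9, with 4 higher and 5 lower. The split depended on scaling, with 6 higher and 12 lower once arrays were centred on their medians. Robo2, a slit receptor, had the largest difference, at 8.81, 9.49 and 10.22 in frontonasal and 8.29, 8.62 and 9.02 in mandibular ectoderm (0.87 ± 0.066, adjusted p = 1.81e-12). Plxna4 had 7.37, 7.51 and 8.03 in frontonasal and 6.74, 6.79 and 6.97 in mandibular ectoderm, without overlap (0.76 ± 0.093, adjusted p = 1.08e-07). Epha4, a receptor for both ephrin classes, was lower and also did not overlap (-0.54 ± 0.055). Nrp2 was higher (0.57 ± 0.094), and Unc5c (-0.51 ± 0.077), Plxnc1 (-0.52 ± 0.10) and Sema4a (-0.53 ± 0.10) were lower. In the same comparison 6 of 7 placode and forebrain markers and 8 of 13 neuronal markers were higher and 1 of each lower. The neuronal list averaged 6.95 to 7.29 at E11.5 and 5.75 to 5.95 at E12.5 on frontonasal arrays, and 5.50 to 6.38 on mandibular arrays of both ages. Their part in the Robo2, Plxna4 and Nrp2 differences was not tested.

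Maxillary ectoderm differed from mandibular ectoderm in 18 probe sets, 16 higher and 2 lower (20 without the 3 arrays, 17 and 3), against 5.04% of all tested probe sets, 3.03% higher and 2.01% lower. A fit to the compared groups alone called 12, with 9 higher and 3 lower. Sema3e had 6.88, 7.31 and 7.85 in maxillary and 6.50, 6.64 and 6.77 in mandibular ectoderm, without overlap (0.69 ± 0.095, adjusted p = 2.9e-06). Ntng2 was higher without overlap as well (0.49 ± 0.08). Robo2 (0.62 ± 0.066) and both slits, Slit2 (0.41 ± 0.09) and Slit3 (0.44 ± 0.11), were higher in maxillary ectoderm. The 2 receptors that were lower belong to the Unc5 family, Unc5c (-0.73 ± 0.077, adjusted p = 1.2e-08) and Unc5a (-0.43 ± 0.096). Slit3 no longer passed without replicate 1 of mandibular ectoderm at E12.5 (0.39) or replicate 1 of maxillary ectoderm at E12.5 (0.34). It did not pass in the fit to the compared groups alone either (adjusted p = 0.0906). Unc5c was lower in maxillary than in mandibular tissue in both layers. In the same comparison 2 of 12 cranial mesenchyme markers, 3 of 13 neuronal markers and 3 of 7 placode and forebrain markers were higher in maxillary ectoderm, and 1 neuronal and 1 of 15 epithelial markers were lower. The cranial mesenchyme list averaged 7.77 to 8.41 on maxillary and 6.94 to 8.56 on mandibular arrays, and its part in the slit differences was not tested.

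Frontonasal ectoderm differed from maxillary ectoderm in 18 probe sets, 6 higher and 12 lower (16 without the 3 arrays, 3 and 13), against 9.24% of all tested, 4.31% higher and 4.93% lower. A fit to the compared groups alone called 7, with 0 higher and 7 lower. With arrays centred on their medians 2 were higher and 12 lower. Plxnc1 (-0.66 ± 0.10), Sema3e (-0.65 ± 0.095), Ntn1 (-0.54 ± 0.079), Epha7 (-0.54 ± 0.078) and Epha4 (-0.44 ± 0.055) were the largest falls with the same sign at both ages. Epha3 was also lower (-0.96 ± 0.22), with differences of -2.36 at E12.5 and 0.45 at E11.5. The netrin Ntn1 had 6.70, 7.11 and 7.43 in frontonasal and 7.23, 7.58 and 8.15 in maxillary ectoderm (adjusted p = 8.56e-06). Unc5b, a netrin receptor, was higher (0.39 ± 0.089), but did not pass in the fit to these groups alone (adjusted p = 0.0769). Ranges of the frontonasal and maxillary groups overlapped in each of these genes. In the same comparison 8 of 13 neuronal and 5 of 8 leukocyte markers were higher, and their part was not tested.

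Mesenchyme was compared between E12.5 and E11.5 over the 3 prominences, with 9 arrays an age. Of the members that changed, nearly all rose. Of the 64 probe sets 44 were higher at E12.5 and 1 was lower (46 and 1 without the 3 arrays), and 19 did not pass, while 19.4% of all tested probe sets were higher and 17.3% lower, 36.7% in all. The median difference was 0.32 for the members and 0.016 over all tested probe sets. The rises took in 23 of the 32 ligands and 21 of the 32 receptor probe sets, with 15 of 18 semaphorins, 6 of 8 plexin probe sets, both neuropilins, 5 of 5 EphB and 3 of 8 EphA receptors, 2 of 4 ephrin-A and 1 of 3 ephrin-B ligands, 3 of 5 netrins, 3 of 5 Unc5 probe sets, both slits and 2 of 4 Robo receptors. Centring the arrays on their medians left 39 higher and 1 lower.

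Sema3d had a lowest, median and highest signal of 6.84, 7.98 and 8.35 at E12.5 and 5.52, 6.60 and 7.32 at E11.5, and rose 2.51-fold (1.33 ± 0.10, adjusted p = 4.02e-13). Robo2 had 9.19, 9.78 and 9.88 at E12.5 and 8.42, 8.59 and 8.83 at E11.5, without overlap (1.01 ± 0.054, adjusted p = 2.63e-17). The ligand side of that system rose with it, Slit3 by 0.88 ± 0.093 and Slit2 by 0.68 ± 0.074. Both probe sets of the netrin receptor Unc5d rose (1.06 ± 0.085 and 0.90 ± 0.10), as did Unc5c (0.90 ± 0.063), and their ligand Ntn1 rose by less (0.41 ± 0.065). The 1 probe set that fell was Plxnb1 (10589368, -0.20 ± 0.055, adjusted p = 0.00425).

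In the same comparison 7 of 9 skeletal muscle markers, 6 of 14 endothelial markers, 7 of 15 epithelial markers and 5 of 12 cranial mesenchyme markers rose, and 6 of 6 erythroid markers fell. Of 13 neuronal markers 1 rose and 5 fell. The erythroid list averaged 7.03 to 7.50 at E12.5 and 8.13 to 8.57 at E11.5, and the muscle list 5.20 to 8.08 and 5.34 to 6.94. The part of these shifts in the members' rise was not tested. Of the 29 effectors that passed the filter on variance (48 listed) 13 rose and 2 fell, and of the 20 co-receptors and other receptors (22 listed) 11 rose and 2 fell, against 19.4% and 17.3% of all tested probe sets. Of these receptors, Dcc, the attractive netrin receptor, rose by 1.00 ± 0.11 and the hedgehog co-receptor Boc by 0.74 ± 0.057.

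Between E11.5 and E10.5 the mesenchyme of the frontonasal and mandibular prominences could be compared, 6 arrays an age. There 32 members rose and 3 fell (34 and 3 without the 3 arrays), against 14.8% and 11.3% of all tested probe sets, 26.1% in all. This comparison shares its E11.5 arrays with the later step. Robo1 had 10.18, 10.43 and 10.46 at E11.5 and 9.54, 9.60 and 9.82 at E10.5 (0.73 ± 0.064, adjusted p = 3.27e-11), and Robo2 rose by nearly as much (0.70 ± 0.066). Epha4 (0.70 ± 0.055) and Nrp2 (0.73 ± 0.094) also separated the ages without overlap. Epha3 rose 2.01-fold (1.01 ± 0.22, adjusted p = 0.000513), with overlapping ranges, since frontonasal arrays were lower than mandibular arrays at both ages. The 3 falls were Plxnb1 (-0.38 ± 0.067), Plxna2 (-0.35 ± 0.073) and Unc5b (-0.25 ± 0.089), receptors that were higher in ectoderm than in mesenchyme. Unc5b no longer passed without replicate 2 or 3 of frontonasal mesenchyme at E11.5, replicate 2 or 3 of mandibular mesenchyme at E11.5, replicate 3 of frontonasal mesenchyme at E10.5 or replicate 1 of mandibular mesenchyme at E10.5, with values from -0.25 to -0.18. In this step 8 of 12 cranial mesenchyme markers, such as Lum (1.35 ± 0.24) and Col1a1 (1.32 ± 0.16), rose. Of 9 muscle markers 6 rose and 1 fell. Rises were also found in 4 of 7 glia and migratory crest, 4 of 6 erythroid, 3 of 8 leukocyte and 2 of 14 endothelial markers. Of 13 neuronal markers 2 rose and 1 fell, and of 15 epithelial markers 1 rose and 0 fell. The cranial mesenchyme list averaged 9.81 to 10.20 at E11.5 and 9.21 to 9.67 at E10.5. The muscle list averaged 5.34 to 6.94 and 5.52 to 5.85. The part of these shifts in the members' rises and falls was not tested.

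The ectoderm had no such common direction between E12.5 and E11.5. Of the 64 probe sets 12 rose and 17 fell (15 and 16 without the 3 arrays), against 11.9% and 16.8% of all tested probe sets, 28.7% in all. Sema6d, a membrane semaphorin that signals through Plxna1, had 7.65, 7.85 and 8.23 at E12.5 and 6.34, 6.55 and 6.68 at E11.5, a 2.55-fold rise without overlap (1.35 ± 0.056, adjusted p = 3.84e-20). It rose in every prominence, by 1.52 in frontonasal, 1.23 in maxillary and 1.30 in mandibular ectoderm. Other rises were Ntng1 (0.81 ± 0.078), Sema4a (0.77 ± 0.083), Robo2 (0.72 ± 0.054), Plxnc1 (0.65 ± 0.083) and Efna3 (0.58 ± 0.094). The netrin receptor Unc5c fell most, with 6.76, 7.16 and 7.97 at E12.5 and 8.01, 8.37 and 8.85 at E11.5, without overlap (-1.14 ± 0.063, adjusted p = 9.63e-17). Slit2 had 6.88, 7.41 and 8.36 at E12.5 and 7.99, 8.31 and 8.81 at E11.5 (-0.83 ± 0.074, adjusted p = 2.74e-11), with a difference of -1.58 in frontonasal ectoderm. The netrin Ntn1 fell in all prominences (-0.63 ± 0.065). In this step 11 of 13 neuronal markers fell, with a list mean of 5.58 to 5.95 at E12.5 and 5.50 to 7.29 at E11.5, and 5 of 12 cranial mesenchyme and 5 of 7 placode and forebrain markers fell, while 1 mesenchyme marker rose. Their part in the falls of Unc5c, Slit2 and Ntn1 was not tested.

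The earlier step, E11.5 against E10.5, could be read only in mandibular ectoderm, with 3 arrays an age. There 16 members rose and 6 fell, both with and without the 3 arrays above, against 11.4% and 6.95% of all tested probe sets, 18.4% in all. Robo2 had 8.48, 8.39 and 8.29 at E11.5 and 7.19, 6.92 and 7.28 at E10.5 (1.26 ± 0.093, adjusted p = 1.45e-12). Sema6d had 6.34, 6.68 and 6.58 at E11.5 and 5.28, 5.57 and 5.49 at E10.5 (1.09 ± 0.097, adjusted p = 1.49e-10). Both genes were higher on every E11.5 array, and both rose again by E12.5. The slits moved in opposite directions, Slit2 rising (0.58 ± 0.13). Slit3 fell, with 6.98, 7.06 and 7.27 at E11.5 and 7.93, 7.76 and 7.85 at E10.5 (-0.74 ± 0.16), as did Plxna4 (-0.60 ± 0.13) and Unc5b (-0.54 ± 0.13).

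Some members with higher signals in mesenchyme rose in the same mandibular ectoderm. Epha3 had 5.05, 7.10 and 6.53 at E11.5 and 4.76, 4.65 and 5.02 at E10.5 (1.42 ± 0.31, adjusted p = 0.000919). Nrp1 had 5.44, 7.0 and 6.29 at E11.5 and 4.93, 4.94 and 5.32 at E10.5 (1.18 ± 0.23, adjusted p = 0.000213). In both genes every E11.5 array was above the E10.5 arrays, but replicate 1 at E11.5 was the lowest of its group and lay close to the highest E10.5 array. Sema5a (0.80 ± 0.12), Plxnd1 (0.69 ± 0.20) and Epha7 (0.61 ± 0.11) rose as well, while Nrp2 (0.24) and Robo4 (0.057) did not pass and Slit3 fell as given above. In these arrays 11 of 12 cranial mesenchyme markers and 9 of 14 endothelial markers rose, at a list mean of 7.34 to 8.56 at E11.5 and 6.14 to 6.54 at E10.5 for mesenchyme, and 5.65 to 6.42 and 5.25 to 5.51 for endothelium. Ebf1 of the mesenchyme list and Kdr of the endothelial list were detected on 3 arrays at E11.5 and 0 at E10.5. The part of such cells in the Epha3, Nrp1, Sema5a, Plxnd1 and Epha7 differences was not tested.

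**Figure D5:**
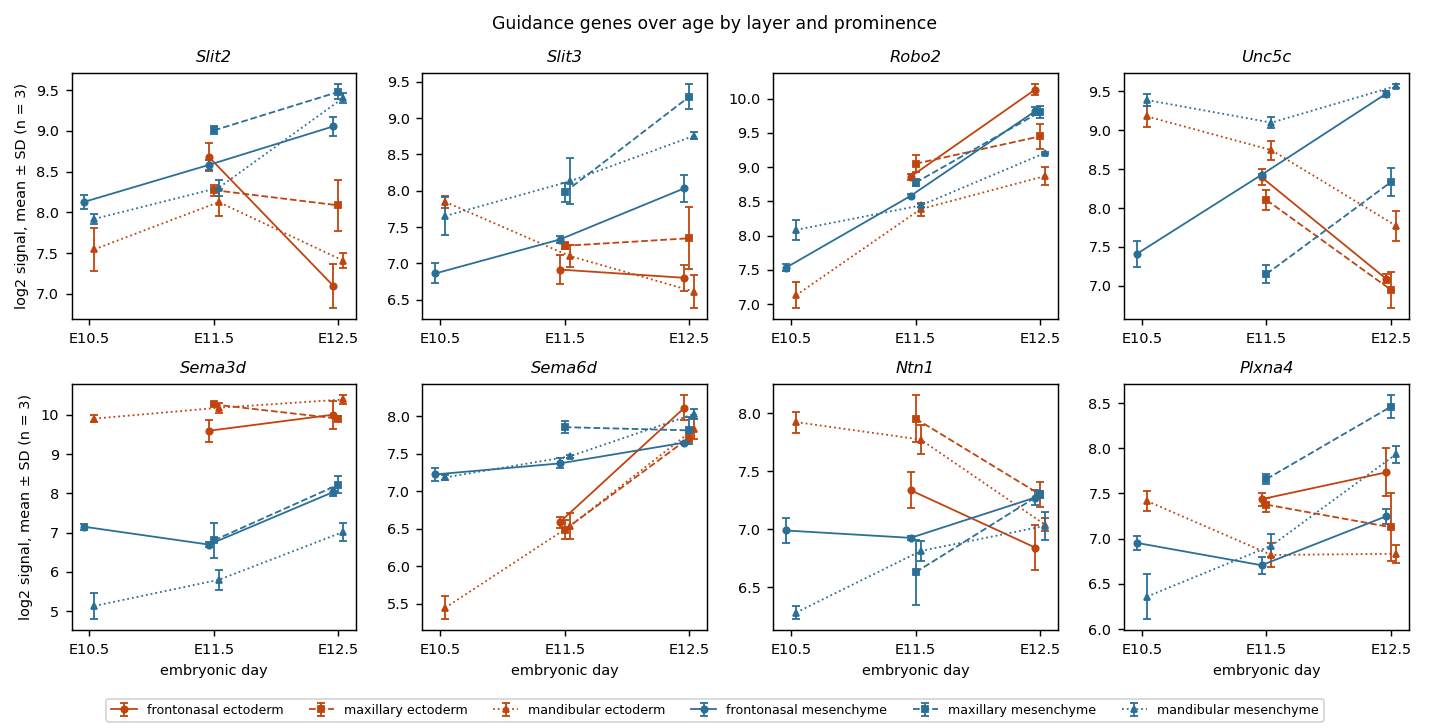
Group mean and SD (n = 3) of the log2 signal (vertical axis) of 8 members against embryonic day, by layer (colour) and prominence (line style). Slit2 and Unc5c rise in mesenchyme and fall in ectoderm between E11.5 and E12.5, and Sema6d rises in all 3 ectoderms.

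Whether the layer difference changed with age was tested as an interaction, the layer difference at E12.5 minus that at E11.5. It passed for 37 members, 4 with a more ectodermal and 33 with a more mesenchymal balance at E12.5 (39 without the 3 arrays, 5 and 34), against 8.36% and 15.5% of all tested probe sets, 23.9% in all. The median was -0.26 for the members and 0.010 over all tested probe sets. Unc5c moved most (-2.04 ± 0.089, adjusted p = 3.53e-19). Its layer difference at E11.5 was -0.03 in the frontonasal, 0.95 in the maxillary and -0.35 in the mandibular prominence, and at E12.5 it was -2.37, -1.38 and -1.79 in the same order. Slit2 (-1.51 ± 0.10, adjusted p = 9.87e-14) and Slit3 (-1.05 ± 0.13, adjusted p = 8e-08) moved the same way. Sema3d (-1.24 ± 0.14) and Sema3e (-1.08 ± 0.11) moved with them, so their excess in ectoderm was smaller at E12.5. For Ntn1 (-1.04 ± 0.091) the layer differences of the frontonasal, maxillary and mandibular prominences were 0.41, 1.32 and 0.96 at E11.5, and at E12.5 they were -0.43 in the frontonasal and within 0.01 of 0 in the other prominences. Sema6d was the largest move toward ectoderm (1.08 ± 0.079, adjusted p = 4.68e-13), followed by Sema4a (0.65 ± 0.12), Ntng1 (0.43 ± 0.11) and Ntn4 (0.29 ± 0.091).

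Marker lists shifted between the ages as well. The layer difference of 8 of 12 cranial mesenchyme, 9 of 14 endothelial, 8 of 13 neuronal and 5 of 9 muscle markers was more mesenchymal at E12.5. The same held for 4 of 15 epithelial, 5 of 7 placode and forebrain, 1 of 7 glia and migratory crest and 1 of 8 leukocyte markers. In these lists 0 markers were more ectodermal. Of 6 erythroid markers 3 were more ectodermal and 0 more mesenchymal. The part of these lists in the members' interaction was not tested.

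The layer difference also varied with prominence in 31 of the 64 probe sets (28 without the 3 arrays), by a moderated F test over E11.5 and E12.5, against 19.6% of all tested probe sets. Plxna4 had a layer difference in the frontonasal prominence that exceeded the mandibular one by 1.21 (adjusted p = 1.11e-10). It was higher in frontonasal ectoderm than in the mesenchyme below it, by 0.73 at E11.5 and 0.49 at E12.5, and lower in ectoderm in the maxillary (-0.28 and -1.33) and mandibular prominences (-0.10 and -1.10). Epha1 (-1.17, adjusted p = 1.92e-07) and Sema3d (-1.44, adjusted p = 2.8e-08) had a smaller layer difference in the frontonasal than in the mandibular prominence. Epithelial markers were higher in frontonasal mesenchyme, as given above. Sema3d was also higher in maxillary than in mandibular mesenchyme (1.10 ± 0.12), where 0 of 15 epithelial markers differed. The part of epithelial cells in these layer differences was not tested. Between the maxillary and mandibular prominences the layer difference of Efnb2 differed by 0.63 (adjusted p = 2.68e-11), that of Unc5c by 0.86 (adjusted p = 4.79e-09) and that of Sema3a by 0.76 (adjusted p = 2.81e-08).

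The authors' deposited table of q-values gives a second reading of the same arrays. There, 59 of the 64 probe sets had a q-value under 0.05 for layer, 51 for age and 43 for prominence, against 77.3%, 60.2% and 41.1% of its 9626 probe sets. For the interaction of age with layer 37 members had such a q-value and for prominence with layer 32, against 40.4% and 25.0% of the table. The members that passed for layer were not all the same as above. Robo2 did not pass there (q = 0.197), and Sema5b did (q = 0.0357).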

How the data were processed

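RNA of 45 tissue pools was hybridised to Affymetrix Mouse Gene 1.0 ST arrays. The deposited values are log2 signals, which the authors summarised by RMA with Affymetrix Power Tools 1.91 on build mm9, per the submitters' processing notes. The deposited detection p-values come from apt-probeset-summarize 1.8.0, per the file headers. The authors' deposited model table gives q-values for age, prominence, layer and their interactions over 9626 probe sets chosen for variance, with a symbol for each, and members were matched to it by symbol. RMA sets all arrays to a common distribution, so a change shared by most genes cannot be seen.

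Values were used as deposited, with array medians of 5.97 to 6.22. The 14472 probe sets whose variance exceeded the median (0.0414) were fitted in limma 3.58.1 (R 4.3.3) with 15 group means and moderated tests, and p-values were adjusted over all of them by Benjamini and Hochberg. Layer and age contrasts average the prominences (and ages) that both sides share. The threshold was 0.05. The fit was tested on simulated data. The labels call the replicates biological and each is a pool of several embryos. P-values rest on the spread between pools, as 1 estimate per probe set shared by the 15 groups. The groups were not equally variable. The root mean square distance of an array from its group means was 0.211, 0.221 and 0.380 in frontonasal ectoderm at E12.5. In mandibular mesenchyme at E11.5 it was 0.130, 0.114 and 0.129. Standard errors may thus be too small for frontonasal ectoderm. The number of arrays, 3 a group, limits the precision. Between 22008 and 26532 of 28944 probe sets were detected per array.

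The members, gene lists, ligand and receptor pairs and tests were chosen with earlier results of these data known. Genes named with values are the largest differences of each comparison with 1 sign in every age and prominence compared, up to 10 each way for the layer and 6 for the others, then their ligand or receptor partners. Further members are named so that each is accounted for, chosen after their values were seen. Probe sets detected on 0 arrays are given no direction of their own but enter the counts by sign. Promoters, chromosomes and gene order are from RefSeq (GRCm38.p6), used by symbol, and Efnb3, Ntn1, Plxna1, Plxna4, Sema3f, Sema6a and Unc5d had no promoter entry. Alternatives were array weights, median centring, quantile normalization, a detection filter, no filter on variance, each comparison's own groups alone, trended and robust moderation, a replicate block, the layer without the frontonasal groups and leaving out single arrays. Leaving out the 3 arrays that stand apart was chosen after seeing the data. Calculations used Python 3.11.15, numpy 2.4.6, pandas 2.3.3 and matplotlib 3.10.9.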

Additional observations from a re-analysis of the deposited data

Results flagged for a closer look

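These results are given because the layer difference itself differed between ages or between prominences by an interaction test in limma over all 14472 probe sets. Between the ages, the layer difference (ectoderm minus mesenchyme, log2) at E12.5 minus that at E11.5 was -2.04 for Unc5c (adjusted p = 3.53e-19), -1.51 for Slit2 (9.87e-14), -1.24 for Sema3d (1.54e-08), -1.08 for Sema3e (1.15e-09), 1.08 for Sema6d (4.68e-13) and -1.05 for Slit3 (8e-08). Between prominences, the frontonasal minus the mandibular layer difference was 1.21 for Plxna4, -1.44 for Sema3d and -1.17 for Epha1. The maxillary minus the mandibular layer difference was 0.63 for Efnb2, 0.86 for Unc5c and 0.76 for Sema3a. In Unc5c the ectoderm and the mesenchyme moved in opposite directions between E11.5 and E12.5 in the frontonasal, maxillary and mandibular prominences alike, with differences (E12.5 minus E11.5) of -1.30, -1.15 and -0.97 in ectoderm and 1.04, 1.18 and 0.47 in mesenchyme.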

How the results depend on the processing

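All 13 counts of members kept within 1.5 times under each alternative, except the counts for frontonasal against mandibular ectoderm and frontonasal against maxillary ectoderm when only the groups compared were fitted, which gave 9 and 7 in place of 18 each. The cause was not tested. Leaving out a single array gave 58 to 60 members for the layer, 27 to 28 (frontonasal against mandibular), 17 to 20 (maxillary against mandibular) and 30 to 33 (frontonasal against maxillary) in mesenchyme, and 15 to 23, 13 to 19 and 13 to 20 for the same comparisons in ectoderm. It gave 43 to 48 and 31 to 35 for the later and earlier step in mesenchyme, 27 to 31 and 17 to 22 in ectoderm, 34 to 41 for layer by age and 29 to 33 for layer by prominence. Of 138 named differences 123 kept their call and sign throughout, and 15 lost the call at least once, none changing sign. Those named in the text are Slit3 in maxillary against mandibular ectoderm, Unc5b in frontonasal against maxillary ectoderm (0.39, adjusted p = 0.0769 with only the groups compared) and Unc5b between E11.5 and E10.5 in mesenchyme. Over all tested probe sets, array weights gave 2583 against 1445 for maxillary against mandibular mesenchyme, 4108 against 2718 for frontonasal against maxillary mesenchyme and 1202 against 730 for maxillary against mandibular ectoderm. Without the 3 arrays frontonasal against mandibular ectoderm gave 1705 against 3348, and with only the groups compared 931, and 367 against 1337 for frontonasal against maxillary ectoderm. Same-numbered ectoderm and mesenchyme arrays of an age and prominence correlated, after removing group means, at -0.42 to 0.36 in 21 pairs. In 10 of the 21 the ectoderm array correlated best with the mesenchyme array of its own number. With 3 arrays a group, these values cannot decide whether replicate numbers pair the samples. A replicate block gave 59 members for the layer, 30, 20 and 34 between prominences in mesenchyme, and 20, 18 and 18 in ectoderm. It gave 44 and 36 between ages in mesenchyme, 29 and 22 in ectoderm, and 36 and 31 for the interactions. Signals near background limit Robo4, Epha5 and Epha8, each detected on 14 of 21 ectoderm arrays, and by that count to a lesser degree Epha6 (20), Sema4f (19) and Unc5a (19). By level, Epha6 had no group mean above 4.53. Robo3, detected on 0 arrays, had group means of 4.49 to 4.95. The second Plxnb1 probe set (10596988), also detected on 0 arrays, had group means of 6.14 to 6.83. Undetected signal thus had no single level. The lowest group means of Sema3e (4.75), Epha3 (4.81), Nrp1 (5.06) and Sema3d (5.13) lay near the Robo3 range and below that of Plxnb1. Background may limit their folds, and those of other members with signals below 6.83. At a detection p-value under 0.01, 49 members were detected on all arrays in place of 56, and 62 again on at least 3.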
